A study of Homo sapiens with 6 samples.

Results

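The small heat shock proteins and the BAG co-chaperones were followed through the heat shock of HEK293 cells as 9 genes: HSPB1, HSPB8, HSPB11, CRYAB, BAG1, BAG2, BAG3, BAG4 and BAG5. They were found by their names among the 117001 loci of the merged assembly, where each was named at 1 locus, and they are 9 of the 24177 genes of the single-library assemblies. HEK293 is a human embryonic kidney line, grown at 37°C. For the heat shock group a tube of cells was heated to 45°C in a water bath for 30 minutes, while the control group stayed untreated. RNA was collected 30 minutes after the shock, a time that the labels do not give. The labels give 3 replicates of each group and 1 rRNA-depleted total RNA library from each. The 6 libraries thus share the line, the medium and the rRNA depletion and, by their labels, differ in the heat alone. Whether the control cells were also held in a tube is not stated, so that handling cannot be told apart from the heat. The labels do not say whether the replicates came from separate cultures, so the p-values below measure the spread between these libraries, which may in part be technical. The line is 1 cell type without the muscle and lens cells in which some of these chaperones are most abundant.

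Small heat shock proteins hold unfolding proteins in a form that can be refolded. They share an alpha-crystallin domain, bind clients without ATP and pass them to the HSP70 machine. BAG proteins bind the ATPase domain of HSP70 through their BAG domain, speed the release of the client and steer it to refolding, to the proteasome or to autophagy. BAG3 joins both families, since it also binds HSPB8 and carries damaged proteins to autophagy. HSPB1 and BAG3 are textbook targets of HSF1, the main transcription factor of the heat shock response, which binds heat shock elements. HSPB11 carries the family name but is better known as IFT25, a subunit of the intraflagellar transport complex of cilia, and it is described here under the name given in the assemblies' annotation.

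A heat shock element is built from blocks of GAA and TTC in alternating orientation. The windows of 300 bases around the gene starts (RefSeq) were searched for the 2-block forms GAANNTTC and TTCNNGAA, each of which reads the same on both strands, and for the 3-block forms GAANNTTCNNGAA and TTCNNGAANNTTC, which contain them. Windows were found for 7 of the 9 genes, a pair of them each for HSPB11 and BAG5, and all of them matched GRCh37 (hg19, the build of the files) exactly at 1 place each. A 2-block form was found for HSPB1, HSPB8 and BAG2, 3 of the 7 genes, beside 13.5% of 35116 promoter windows, a share counted by window and not by gene. No member's window held a 3-block form, which 0.49% of windows did. The stretches before the deposited transcript's start are shown for HSPB1 and BAG2, which hold a match there, and for BAG3, which holds none. They run 5′ to 3′ on the plus strand, at chr7:75931740-75931874, chr6:57036874-57037103 and chr10:121410642-121410881, with the 2-block matches in capitals.
HSPB1: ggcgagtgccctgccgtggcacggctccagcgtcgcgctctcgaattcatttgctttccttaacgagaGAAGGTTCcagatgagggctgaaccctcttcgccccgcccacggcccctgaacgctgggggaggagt
BAG2: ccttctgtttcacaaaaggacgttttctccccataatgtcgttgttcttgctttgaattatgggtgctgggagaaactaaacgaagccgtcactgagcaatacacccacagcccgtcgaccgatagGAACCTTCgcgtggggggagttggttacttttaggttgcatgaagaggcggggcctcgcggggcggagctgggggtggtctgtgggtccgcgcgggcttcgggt
BAG3: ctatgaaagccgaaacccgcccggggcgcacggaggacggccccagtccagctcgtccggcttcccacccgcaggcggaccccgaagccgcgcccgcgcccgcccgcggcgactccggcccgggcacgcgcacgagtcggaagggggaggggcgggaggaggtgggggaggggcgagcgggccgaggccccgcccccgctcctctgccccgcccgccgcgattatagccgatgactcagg
The match of HSPB1, GAAGGTTC, begins 67 bases before the start of its deposited transcript, and that of BAG2, GAACCTTC, begins 104 bases before. HSPB8 holds 2 matches, GAATATTC and GAAGTTTC, both inside exon 1 of the deposited transcript. The whole BAG3 window, which runs past the stretch shown, ends in GAAGTTT. This is GAANNTTC without its last letter, so a match across that edge could not be found by this search. A match is a string of letters in the window and was not tested for binding.

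FPKM counts fragments relative to the length of the transcript and the mapped fragments of the library, and the value of a gene was the sum over its transcripts in a library. The 6 libraries differed in scale: over 983 genes above 10 FPKM in every library, a common factor (the median ratio to the genes' geometric mean) was 0.948, 0.439 and 0.967 in the control libraries and 2.15, 2.34 and 0.492 in the heat shock libraries. The median log2 fold change of all 13027 genes tested was therefore 0.45 as deposited and −0.21 after division by the common factor, and each member is given on both scales. Heat shock replicate 3 stood with control replicate 2 in scale and apart from the other heat shock libraries. FPKM are relative to a library's total, so that fewer cells and less RNA per cell cannot be told apart. All 9 HEK293 markers averaged at least 1 FPKM, with sums of 110.2 to 288 FPKM in control and 142 to 1049 FPKM in heat shock libraries. Of 9 markers of other cell types, 8 averaged under 1 FPKM, and the part of such cells in the results was not tested.

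No small heat shock protein or BAG gene passed the test. The mean FPKM of 8 genes was higher after heat shock as deposited and that of HSPB8 was lower, but the control and heat shock libraries of all 9 overlapped. With limma on log2(FPKM + 1), 0 of the 8 members tested were called (adjusted p under 0.05 with a fold change above 2), and 0 had an unadjusted p under 0.05. Among all genes tested, 0.023% were called as deposited, with 270 higher and 211 lower at an unadjusted p under 0.05. After the common factor 0% were called (0 genes), with 96 higher and 324 lower at that level. The heat shock libraries of 0 members lay all above or all below the control libraries on either scale, against 3.71% of genes all above and 2.26% all below as deposited, and 2.01% and 5.38% after the common factor. The median log2 fold change of the 8 members was 0.80 as deposited, with 7 positive, and 0.02 after the common factor, with 4 positive. Relative to the median of all genes, these are 0.35 and 0.23. As deposited, heat shock replicate 3 decides the overlap: without it, 7 of the 8 members lay all above the control libraries, as did 55.7% of all genes. Without it, 6 of 8 members also had an unadjusted p under 0.05, with none called. Among all 13027 genes tested, 5150 higher and 1219 lower reached that level. After the common factor, without that replicate, 1 member (BAG2) lay all above and 2 (BAG5 and HSPB8) lay all below, against 4.31% and 41.9% of all genes, and the other 5 overlapped.

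HSPB1, known as HSP27, is the small heat shock protein of most tissues, and it was the most abundant member. Its FPKM was 44.0, 22.1 and 120.3 in the control libraries and 257, 151 and 33.6 in the heat shock libraries. Heat shock replicates 1 and 2 were above every control library, and replicate 3 was below control replicates 1 and 3. The group means were 62.1 ± 51.5 and 147 ± 112 FPKM (SD, n = 3 each), and the log2 fold change was 1.14 with an SE of 1.05 (limma adjusted p = 0.71). After the common factor the values were 46.5, 50.2 and 124 against 119, 64.5 and 68.3, and the log2 fold change was 0.28 with an SE of 0.44 (limma adjusted p = 0.92). The control replicate 3 value lay then above all heat shock libraries.

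The transcripts listed for HSPB1 differed between libraries. The RefSeq transcript NM_001540 (chr7:75931875-75933614, plus strand, 3 exons, 897 nucleotides) was listed at 0 in control replicate 3 and in heat shock replicate 1. In those libraries the whole value stood on a spliced 2-exon fragment of the gene's 3′ end, of 479 nucleotides at chr7:75933044-75933640 with 120.3 FPKM, and of 545 nucleotides at chr7:75933074-75933736 with 257 FPKM. Heat shock replicates 2 and 3 stood wholly on NM_001540, at 151 and 33.6 FPKM. When each transcript was weighted by its length, the heat shock values as deposited were 156, 151 and 33.6 with an SD of 69.3, and the values after the corresponding common factor were 47.6, 55.3 and 67.5 in control and 72.5, 64.6 and 67.9 in heat shock libraries, and the control SD went from 43.9 to 10.0. The means were then 56.8 ± 10.0 and 68.3 ± 4.01 (SD, n = 3 each), a ratio of 1.20 (exact permutation p = 0.2, two-sided). This weighting was chosen after the values were seen. Processed pseudogenes of HSPB1 share much of its sequence, so a part of its value is uncertain.

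HSPB11 (chr1:54387234-54411288, minus strand, 6 exons) stood next in level, with 37.2, 16.6 and 53.9 FPKM in control and 91.0, 101 and 17.0 FPKM in heat shock libraries. Again heat shock replicates 1 and 2 were the highest and replicate 3 was next to the lowest. Its log2 fold change was 0.73 with an SE of 0.97 (limma adjusted p = 0.72). After the common factor the 6 values closed up to 39.2, 37.8 and 55.8 against 42.2, 43.0 and 34.5, and the fold change turned to −0.13 with an SE of 0.19 (limma adjusted p = 0.92). Length-weighted and scaled, the means were 40.1 ± 4.33 and 40.3 ± 5.86 (SD, n = 3 each), a ratio of 1.01 (exact permutation p = 1).

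HSPB8 is the partner of BAG3 in autophagy, and as deposited it was the member with a negative fold change. It had 1.73, 2.47 and 0.479 FPKM in control and 0.632, 0.229 and 2.18 FPKM in heat shock libraries, so that control replicates 1 and 2 and heat shock replicate 3 were high and the other libraries low. The log2 fold change was −0.38 with an SE of 0.54 as deposited (limma adjusted p = 0.73) and −0.62 with an SE of 0.83 after the common factor (limma adjusted p = 0.91). In the 3 high libraries the signal stood on single-exon fragments at the ends of the gene (chr12:119616595-119632551, plus strand), with NM_014365 itself at 0, 0 and 0.138 FPKM. In the 3 low libraries NM_014365 was the only transcript listed. With annotated transcripts alone, the direction turned, with means of 0.160 in control and 0.333 FPKM in heat shock libraries and overlapping groups (exact permutation p = 0.5). The 3 high libraries are also those with the most transcripts without a strand, 141632 to 194489 against 17304 to 45600 in the others, and the part of this in the result was not tested.

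CRYAB, the alpha-B crystallin of lens and muscle, was at the edge of detection. Its transcript NM_001885 (chr11:111779350-111782473, minus strand) was listed at 0, 0.364 and 0 FPKM in control and at 0.179, 0.338 and 0 FPKM in heat shock libraries, and the lower bound of its 95% interval was 0 in every library. With a mean of 0.147 FPKM it was under the minimum of 1 FPKM and was not tested. No difference was detectable at this depth.

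BAG3 (chr10:121410882-121437329, plus strand, 4 exons) was the most abundant BAG gene. It had 4.18, 3.54 and 5.60 FPKM in control and 16.6, 17.6 and 4.01 FPKM in heat shock libraries. The 2 high heat shock libraries were above all controls and the third lay among them. The means were 4.44 ± 1.05 and 12.8 ± 7.59 FPKM (SD, n = 3 each), and the log2 fold change was 1.14 with an SE of 0.67 (limma adjusted p = 0.71). After the common factor the heat shock libraries lay close together at 7.71, 7.54 and 8.14 FPKM, and the control libraries at 4.40, 8.07 and 5.78 FPKM, with control replicate 2 inside the heat shock range. The log2 fold change was 0.34 with an SE of 0.24 (limma adjusted p = 0.91), above 91.3% of all genes. With the median-of-ratios factor over all genes, the BAG3 values were 4.16, 6.25 and 5.88 against 9.87, 9.83 and 6.56 FPKM, all heat shock libraries above all controls (exact permutation p = 0.1, the smallest that 3 against 3 libraries can give), as in 5.14% of all genes.

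BAG1, the founding member of the family, had 3.22, 2.29 and 3.92 FPKM in control and 6.78, 8.45 and 2.04 FPKM in heat shock libraries. The log2 fold change was 0.57 with an SE of 0.56 (limma adjusted p = 0.71), and −0.16 with an SE of 0.24 after the common factor. BAG2, an inhibitor of the ubiquitin ligase CHIP, had 2.50, 1.31 and 2.27 against 7.57, 7.41 and 1.42 FPKM, a log2 fold change of 0.91 with an SE of 0.57. After the common factor BAG2 had 2.64, 2.99 and 2.35 against 3.51, 3.16 and 2.88 FPKM, where control replicate 2 alone lay above heat shock replicate 3 (exact permutation p = 0.2). In both genes heat shock replicates 1 and 2 were the highest libraries as deposited.

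BAG4, also called SODD for its silencing of death receptors, had 3.16, 1.34 and 1.98 against 6.46, 7.42 and 1.79 FPKM, with a log2 fold change of 0.87 (SE 0.54) as deposited and 0.18 (SE 0.26) after the common factor. BAG5, which carries several BAG domains and inhibits the ubiquitin ligase parkin, had 3.36, 1.93 and 3.09 against 5.08, 5.86 and 2.62 FPKM, with 0.51 (SE 0.49) and −0.16 (SE 0.33). Limma adjusted p-values of BAG2, BAG4 and BAG5 were 0.71 as deposited and between 0.91 and 0.94 after the common factor. The positions of these genes are chr9:33252470-33264759 for BAG1 and chr14:104022881-104029151 for BAG5 on the minus strand, and chr6:57037104-57050012 for BAG2 and chr8:38034106-38070819 for BAG4 on the plus strand. Reads of BAG1 may also fall on a processed pseudogene, so a part of its value is uncertain.

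**Figure D1:**
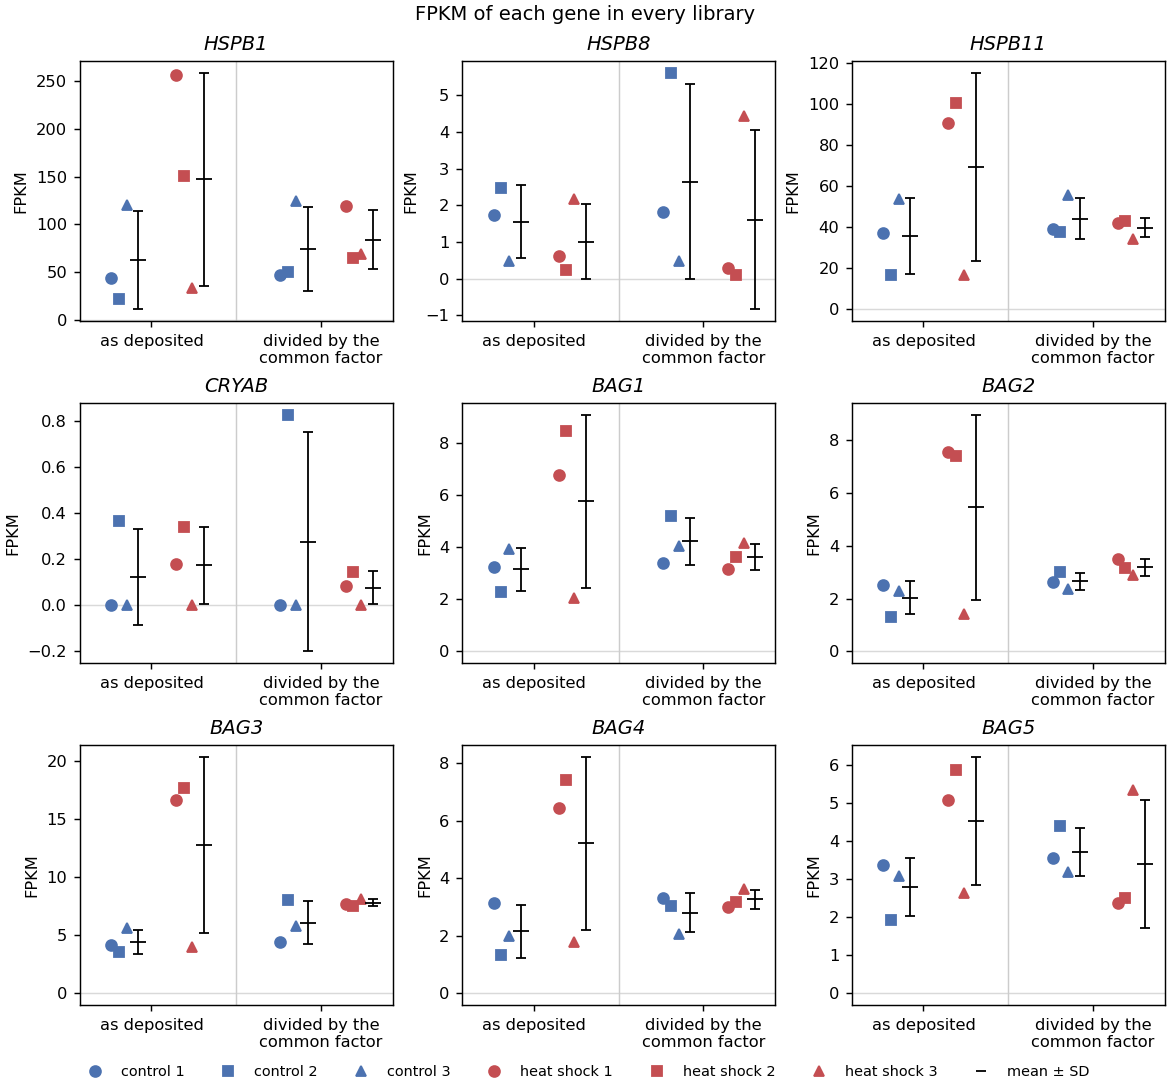
FPKM of the 9 genes in each library, as deposited (left of each panel) and divided by the common factor (right), with the mean and SD of 3 libraries beside the points. As deposited, heat shock replicates 1 and 2 lie above all control libraries in the 7 genes other than HSPB8 and CRYAB and replicate 3 lies among or below them; after division the groups overlap in all 9 genes.

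The levels per length stood in tiers in control libraries. HSPB1 and HSPB11 averaged 62.1 and 35.9 FPKM, and their ranges overlapped. The 5 BAG genes followed between 2.03 and 4.44 FPKM, in the order BAG3, BAG1, BAG5, BAG4 and BAG2. The range of BAG3, 3.54 to 5.60 FPKM, overlapped that of BAG1, 2.29 to 3.92 FPKM, and the ranges of neighbours below it overlapped as well. HSPB8 (1.56 FPKM) and CRYAB (0.121 FPKM) came last. The range of HSPB8, 0.479 to 2.47 FPKM, overlapped that of BAG2 and did not meet that of CRYAB.

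A rank within a library does not depend on the scale. Among the 13027 genes tested, BAG3 stood at the percentiles 57.3, 67.5 and 67.3 in control and 78.0, 78.1 and 67.8 in heat shock libraries. BAG5 stood at 48.0, 41.2 and 48.2 against 50.7, 52.2 and 50.2. These 2 members ranked higher in every heat shock library than in any control library (exact permutation p = 0.1 each), as 4.71% of genes did, while 3.57% ranked lower in every one. HSPB1 ranked between 95.7 and 98.1 and HSPB11 between 93.9 and 96.1 in all 6 libraries, with overlapping groups.

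HSP70 and its other partners are the machine that BAG proteins act on, and they were set beside the members at the same time point. Of 10 such genes, 9 were tested and 0 were called on either scale. As deposited, 3 of them (DNAJB1, HSPA1A and HSPA1B) had every heat shock library above every control library, and after the common factor 6 of 9 did, against 0 of 8 members and 2.01% of all genes. DNAJB1, the HSP40 that loads clients on HSP70, had 7.32, 4.84 and 9.18 FPKM in control and 121, 116 and 34.0 FPKM in heat shock libraries, and its log2 fold change after the common factor was 2.51 with an SE of 0.19 (limma adjusted p = 0.13). HSPA1B and HSPA1A, the inducible HSP70 genes, followed with 1.87 (SE 0.21) and 1.10 (SE 0.20), but they are near-identical copies, so their split is uncertain. DNAJB2 (−0.62, SE 0.63) and HSPA4 (−0.12, SE 0.13) were lowest. An unadjusted p under 0.05 was reached by 5 of the 9 after the common factor, and their median log2 fold change was 0.35 after the common factor, beside 0.02 for the members and −0.21 for all genes.

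The ratio of 2 genes within a library is also free of its scale. There were 1.75, 1.37 and 1.64 FPKM of DNAJB1 for each FPKM of BAG3 in control and 7.28, 6.58 and 8.48 in heat shock libraries. This is a 4.69-fold difference (2.23 on the log2 scale, with SDs of 0.19 and 0.18 within the groups), without overlap (exact permutation p = 0.1). DNAJB1 against HSPB1 went from 0.166, 0.220 and 0.0763 to 0.471, 0.769 and 1.01, a 5.09-fold difference without overlap (exact permutation p = 0.1). DNAJB1 was higher without overlap against 7 of the 8 members tested, HSPB8 being the exception, and it was so against 94.1% of 11556 genes. DNAJB1 was chosen as the reference after its values were seen, and length-weighted its difference against HSPB1 was 3.38-fold. With HSPA8, the constitutive HSP70, as the reference, the ratio to BAG3 differed 0.954-fold and that to HSPB1 1.03-fold, with overlapping groups (exact permutation p = 0.8 and 0.9). HSPA8 was higher without overlap against 1 of the 8 members, HSPB11 (1.38-fold, exact permutation p = 0.1), and against 24.3% of the 11556 genes.

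**Figure D2:**
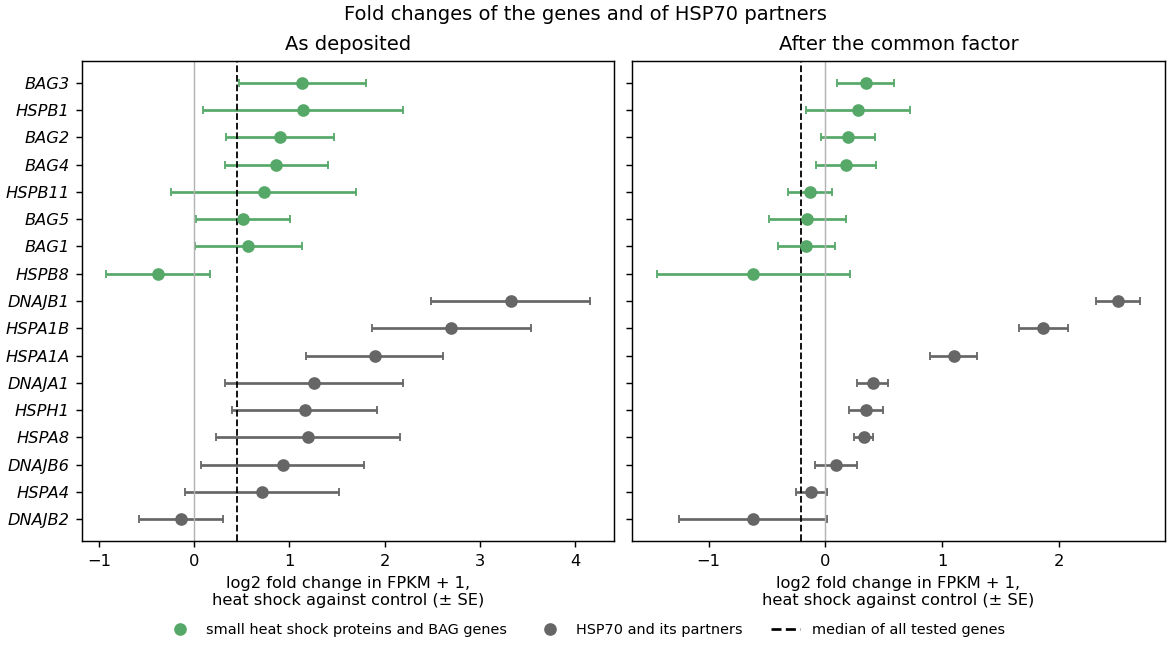
Log2 fold change in FPKM + 1, with its SE from limma, for 8 members (green) and 9 HSP70 genes and partners (grey), as deposited on the left and after the common factor on the right; the dashed line is the median of all 13027 genes (0.45 and −0.21). DNAJB1, HSPA1B and HSPA1A stand at 2.51, 1.87 and 1.10 on the right, where the members lie between −0.62 and 0.34.

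Within the BAG family, each gene's share of the summed FPKM was compared. BAG3 held 25.4%, 34.0% and 33.2% in control and 39.1%, 37.7% and 33.7% in heat shock libraries, and the means of 30.9 ± 4.74% and 36.8 ± 2.78% (SD, n = 3 each) overlapped (exact permutation p = 0.2, two-sided). Length-weighted, the BAG3 shares were 26.3%, 28.4% and 26.4% against 30.0%, 28.9% and 29.5%, all heat shock libraries higher (exact permutation p = 0.1). BAG1 held 19.6%, 22.0% and 23.3% against 16.0%, 18.1% and 17.2%. Its heat shock libraries were all lower, with a mean difference of −4.56 percentage points (exact permutation p = 0.1, the smallest possible), and they were all lower length-weighted as well. With annotated transcripts alone, the BAG1 shares overlapped (30.2%, 16.5% and 42.3% against 39.9%, 19.4% and 11.8%, exact permutation p = 0.7). The shares of BAG2, BAG4 and BAG5 overlapped between the groups (exact permutation p = 0.6, 0.9 and 0.4). Of the FPKM summed over HSPB1, HSPB8, CRYAB and HSPB11, HSPB1 held 53.1%, 53.1% and 68.9% in control and 73.7%, 59.8% and 63.7% in heat shock libraries (exact permutation p = 0.3). These were 9 comparisons of shares, and the shares within a family depend on each other, since a rise in 1 lowers the rest. With 3 libraries against 3 none could reach a p under 0.1.

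**Figure D3:**
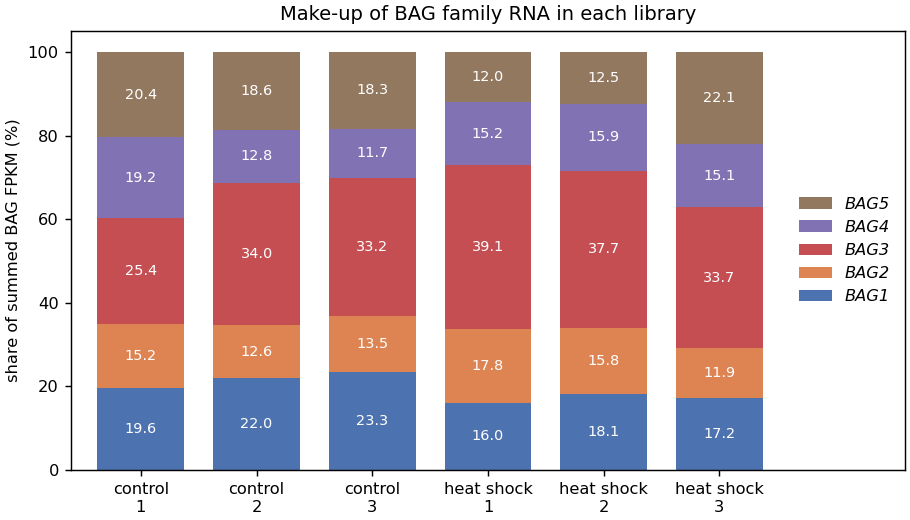
Share of the summed BAG1 to BAG5 FPKM held by each gene in each library, in percent. The BAG1 share is 19.6% to 23.3% in control and 16.0% to 18.1% in heat shock libraries, while the BAG3 share is 25.4% to 34.0% and 33.7% to 39.1%.

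The transcripts behind the BAG values differed between libraries as those of HSPB1 did. The annotated BAG3 transcript NM_004281 held 34.5%, 21.6% and 0% of the gene's FPKM in control and 16.1%, 15.6% and 15.9% in heat shock libraries. The largest part stood on assembled 3′ transcripts, in heat shock replicates 1 and 2 on a single exon of 1443 and 1494 nucleotides that ends at chr10:121437331, with 13.9 and 14.9 FPKM. Length-weighted and scaled, BAG3 had 4.42, 5.79 and 4.12 against 4.89, 4.88 and 6.72 FPKM, overlapping groups with means of 4.78 ± 0.888 and 5.50 ± 1.06 (SD, n = 3 each, exact permutation p = 0.5). For BAG4 the annotated share was 0% or 100% in each library.

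RNA inside introns gave a second reading, added after the values were seen. Single-exon transcripts without a strand that lie wholly in an intron were summed as FPKM times length per intron base, for the 17500 genes with at least 1000 bases of intron that no other gene covers. BAG3 was at 0.381, 0.317 and 0.0900 in control and 1.07, 0.619 and 0.586 in heat shock libraries. All its heat shock libraries were higher, as in 0.709% of these genes and 1.06% of the 11710 with any intronic transcript. In the heat shock libraries all of the BAG3 level came from intron 1 (chr10:121411368-121429362), with 4, 5 and 8 transcripts there against 5, 4 and 1 in control. The level of intron 1 alone was 0.303, 0.282 and 0.119 against 1.42, 0.821 and 0.777. Divided by the common factor, intron 1 overlapped (0.319, 0.642 and 0.123 against 0.661, 0.351 and 1.58, exact permutation p = 0.2). The bases covered in intron 1 also overlapped, at 4299, 3093 and 451 against 1546, 2606 and 4896. In heat shock replicate 1, short transcripts of 221 and 203 nucleotides were listed at 25.5 and 33.8 FPKM. A transcript starting between 5106 and 5145 bases after the gene start was listed in all 3 heat shock libraries, at 8.72, 5.96 and 2.95 FPKM. Another, starting between 16295 and 16616 bases after it, was also listed in all 3, and control replicate 2 listed one starting at 16309 bases. Divided by the library's mean intronic level, which was 0.103 to 0.173 in control and 0.0881 to 0.182 in heat shock libraries, BAG3 stayed higher without overlap (2.30, 1.83 and 0.870 against 12.2, 4.88 and 3.23), but divided by the common factor it overlapped (0.402, 0.722 and 0.0930 against 0.498, 0.264 and 1.19, exact permutation p = 0.6). Among the other members with such introns, BAG1 and HSPB8 had intronic transcripts in some libraries of both groups, and HSPB11, CRYAB, BAG2, BAG4 and BAG5 were at 0 in all 6. HSPH1, an exchange factor of HSP70, was at 0 in all control libraries and at 1.08, 0.822 and 0.386 in heat shock libraries. The other HSP70 genes and partners read in this way showed no such difference. DNAJB1, HSPA8 and DNAJA1 were at 0 in all 6 libraries. HSPA4 overlapped, at 0, 0.0431 and 0.267 in control and 0.151, 0.288 and 0 in heat shock libraries.

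**Figure D4:**
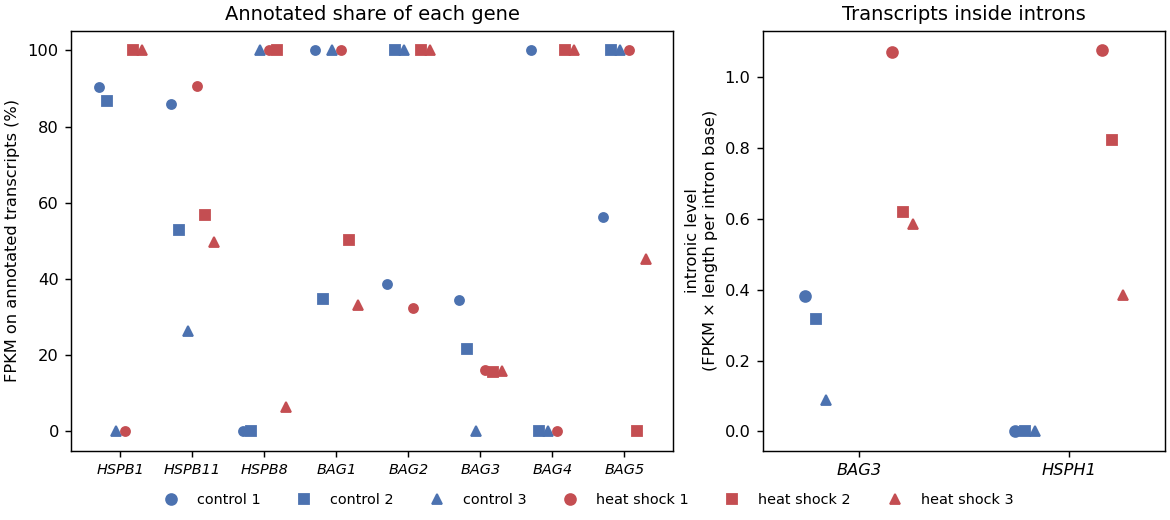
Left, percentage of each gene's FPKM that stands on annotated transcripts, per library; right, intronic level of BAG3 and HSPH1 per library, as FPKM times length per intron base. The annotated share ranges from 0% to 100% for HSPB1, HSPB8, BAG4 and BAG5, and the intronic level of BAG3 is 0.0900 to 0.381 in control and 0.586 to 1.07 in heat shock libraries.

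The merged table gives 1 pooled FPKM for each group, with no value per library and thus no error. As the authors' pooled values, HSPB1 stood at 53.6 FPKM in control and 353 FPKM in heat shock, a ratio of 6.59, above 99.6% of the 12450 named loci with at least 1 FPKM in control. The ratios were 5.60 for BAG2, 5.31 for BAG3, 4.93 for BAG4, 4.91 for HSPB11, 3.84 for BAG1 and 3.17 for BAG5. All 7 members above the minimum were more than 2-fold higher, as were 74.1% of these loci, whose median ratio was 3.66. HSPB8, which was under the minimum, stood at 0.769 and 1.11 FPKM, a ratio of 1.45. Its pooled direction is opposite to that of the summed values of the single libraries. It is the same as that of their annotated transcript alone (means of 0.160 in control and 0.333 FPKM in heat shock libraries). The pooled heat shock value lay above every single library for each member but HSPB8, at 184 FPKM for HSPB11 and 22.0 FPKM for BAG3. The merged loci of HSPB11, BAG1, BAG4 and BAG5 reach over the neighbouring genes LRRC42, CHMP5, LSM1 and KLC1, so their pooled values may hold reads of these. That of HSPB1, chr7:75927637-75935150, reaches past its deposited transcript on both sides, so its pooled value and ratio may hold reads from outside the gene.

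Genes that work with the members were read from lists. Of 8 selective autophagy partners of BAG3 and HSPB8, 6 were tested, 0 were called, and their median log2 fold change after the common factor was −0.0048. The highest were SQSTM1, the p62 receptor that brings ubiquitinated cargo to autophagosomes (0.12, SE 0.34), and YWHAG, a 14-3-3 adaptor (0.03, SE 0.23), and the lowest were SYNPO (−1.15, SE 0.84) and WIPI1 (−0.81, SE 0.44). Of 8 clients and partners of BAG proteins, 5 were tested and 0 were called. GET4, which hands tail-anchored proteins on with BAG6, stood at 0.04 (SE 0.37), and TNFRSF1A (−0.79, SE 0.53) and PINK1 (−0.60, SE 0.26) were lowest. PINK1, a mitophagy kinase, and UBL4A (−0.38, SE 0.16), a BAG6 partner, had every heat shock library below every control library after the common factor, as 5.38% of genes did, but not as deposited. Of the 16 intraflagellar transport B subunits found beside HSPB11, 14 were tested and 0 were called. IFT27, the direct partner of IFT25, was highest (0.92, SE 0.29). All its heat shock libraries lay above the controls after the common factor (exact permutation p = 0.1), as in 2.01% of genes, but not as deposited. IFT88 (0.64, SE 0.35) followed, and IFT22 (−0.35, SE 0.41) and IFT20 (−0.30, SE 0.22) were lowest. IFT80 and TRAF3IP1 had every heat shock library above every control library as deposited, as 3.71% of genes did, but not after the common factor. HSF1 and HSF2, the heat shock factors, stood at 0.19 (SE 0.54) and 0.12 (SE 0.23).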

How the data were processed

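RNA of 3 control and 3 heat shocked HEK293 samples was sequenced after rRNA depletion. According to the submitters' notes and the methods, the authors used FastQC 0.10.1 for quality, Trimmomatic 0.3.0 for trimming, TopHat2 for alignment (hg19) and Cufflinks 2.0.2 for the assembly of each library. The deposited value of each transcript is an FPKM with a 95% interval, which covers fragment counting only, and the authors' merged table holds 1 pooled FPKM per group. Its columns of fold changes, p-values and q-values were not used. How cuffdiff scaled the libraries is not given in the sources used here.

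FPKM were summed per gene over annotated transcripts and those Cufflinks grouped with them (43536 annotated transcripts, 96.5% named through RefSeq accessions). Assembled transcripts grouped with several genes were left out of the sums. For the 13027 genes with a mean of 1 FPKM or more, the test was that of limma 3.58.1 (R 4.3.3, eBayes with a trend) on log2(FPKM + 1), with Benjamini-Hochberg adjustment, without covariates. Fold changes are on this scale, which understates those of low genes. Single values were compared by exact permutation, two-sided, with a smallest p of 0.1. Scripts were tested on simulated data. Intronic signal used bedtools 2.31.1. Depth is known only from coverage per FPKM, and the deepest library had 2.03 times that of the shallowest.

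The members and the lists were chosen with earlier results of these data known. All 9 members are named. From each list, called genes are named, or else the 2 highest and 2 lowest log2 fold changes after the common factor. Some genes whose libraries did not overlap were also named, after their values were seen. Some genes of the lists are not reported here. The genes most like HSPB1, BAG3 and CRYAB are the 5 nearest by root mean square distance among genes averaging at least 10 FPKM. The alternatives were a pseudocount of 0.1, other scalings (common factor, median-of-ratios, TPM), no minimum FPKM or 10, eBayes without a trend, unadjusted p-values, the replicate block, annotated transcripts alone and leaving out each library. Length-weighted sums, intronic levels, ranks and ratios were added after seeing the data. Promoter sequences are RefSeq's (GRCh38.p14 table), placed on GRCh37 by exact match. Coordinates are those of the files or of GRCh37.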

Additional observations from a re-analysis of the deposited data

Results flagged for a closer look

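The intronic level of BAG3 was set apart because it comes from transcripts that the gene comparison does not use and because every heat shock library, the lowest at 0.586, lay above every control library, the highest at 0.381. The means were 0.263 ± 0.153 and 0.759 ± 0.272 (SD, n = 3 each). Of the 11710 genes with any intronic transcript, 124 had all heat shock libraries higher and 170 had all lower. Relative to the length-weighted FPKM of BAG3 itself, the intronic level was 0.0897, 0.125 and 0.0229 in control and 0.102, 0.0542 and 0.176 in heat shock libraries, which overlap (exact permutation p = 0.5). Control replicate 3, with 1 intronic transcript, is also the shallowest library. The intronic transcripts carry no strand, so reads of an antisense RNA cannot be told apart from those of BAG3. With 3 libraries in a group, no test for outlying libraries was run.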

How the results depend on the processing

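The number of genes called, 3 as deposited, moved to 0 with the common factor (with or without the replicate block, or length-weighted) and with no minimum FPKM, to 1 with the median-of-ratios factor, with TPM, without the eBayes trend and with annotated transcripts alone, to 17 with the replicate block, to 477 with the p-value unadjusted and to 265 with the common factor and the p-value unadjusted. Leaving out 1 library gave 0 to 10 calls. The replicate block changed no call of a member. The libraries that share a number did not vary together (correlations of their deviations of 0.027, −0.33 and −0.38). With 3 libraries in a group, these values cannot tell whether the numbers pair the libraries. No member was called under any setting.

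Members whose libraries did not overlap numbered 0 as deposited, 1 (BAG3) with the median-of-ratios factor and 0 to 7 when 1 library was left out, 7 without heat shock replicate 3. Their median log2 fold change of 0.80 lay between −0.075 and 1.44 with 1 library left out, negative only without control replicate 1 after the common factor. Of 183 other values of the members' log2 fold changes, 27 had the opposite sign, all of BAG1, BAG5 and HSPB11. With the common factor, also with the replicate block, they were −0.16, −0.16 and −0.13. With TPM, BAG1 was at −0.028 and BAG5 at −0.041. Length-weighted and scaled, they were at −0.18 and −0.13, and BAG5 was at −0.46 with annotated transcripts alone. Leaving out 1 library, with or without the common factor, gave BAG1 −0.28 to 1.07, BAG5 −0.45 to 0.79 and HSPB11 −0.23 to 1.54. HSPB8 was under the minimum with annotated transcripts alone and was not fitted there. Its turn of direction in that setting (means of 0.160 in control and 0.333 FPKM in heat shock libraries) is thus not among the 183. With 1 library left out, the difference in the share of BAG4 was −0.663 to 3.08 percentage points, that of HSPB8 −2.63 to 0.288 and that of CRYAB −0.377 to 0.0617. With annotated transcripts alone that of BAG4 was 11.9 points. Limits of depth apply to CRYAB and HSPB8, and 3 libraries in a group limit exact permutation p-values to at least 0.1.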

Other observations

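The rest of the small heat shock protein family was low in HEK293 cells. Of HSPB2, HSPB3, HSPB6, HSPB7, HSPB9, CRYAA, ODF1 and BAG6, 4 averaged at least 1 FPKM and 0 were called. HSPB9, known from testis, had 1.92, 0.892 and 1.30 FPKM in control and 2.33, 1.60 and 1.97 FPKM in heat shock libraries, with overlap. CRYAA, the lens alpha-A crystallin, had 4.54, 3.38 and 1.30 against 0.480, 0.362 and 4.34 FPKM. HSPB7, a heart protein, had 2.63, 1.62 and 0.521 against 0.423, 1.11 and 2.44 FPKM. Both were highest in the same 3 libraries as HSPB8, the 3 with the most transcripts without a strand. BAG6, which guards new membrane proteins and differs from the other BAG genes in structure, had 12.3, 1.72 and 1.63 FPKM in control and was listed at 0, 0 and 2.73 FPKM in heat shock libraries, a log2 fold change of −1.56 with an SE of 0.70 (limma adjusted p = 0.71). Assembled transcripts that Cufflinks grouped with several genes were left out, and their part in the BAG6 values was not tested.

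Profiles over the 6 libraries after the common factor were compared with those of 2915 genes averaging at least 10 FPKM. The nearest to BAG3 were MYO19, CYB5A, GPBP1, CTBP1 and the transcript NR_028269, at root mean square distances of 0.11 to 0.17 on the log2 scale. The nearest to HSPB1 were RPS6KB2, SFSWAP, CCS, C19orf81 and GTF3C5, at 0.17 to 0.24. CRYAB, which was close to 0 throughout, lay nearest to CDC26, NME4, PAIP2, PSME1 and MRPL16, at 0.06 to 0.08. With 6 points these distances are a description.

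The 3 genes called among all those tested, named after their values were seen, are small RNAs outside the chaperone families. SNAR-E and SCARNA11 were higher after heat shock, and SNORA30, at 8.37 to 17.0 FPKM in control, was lower, with every heat shock library at 0.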
